A study of Mus musculus with 18 samples.

Results

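Tumor necrosis factor (TNF), the lymphotoxins and LIGHT are related cytokines that share receptors. Here their mRNAs were followed in CD45+ leukocytes that had left an inflamed joint or inflamed skin for the draining lymph node, in leukocytes that had stayed behind, and in lymph node leukocytes at steady state. The 8 genes were chosen by name from 49585 genes in the count table: the ligand genes Tnf, Lta, Ltb and Tnfsf14 and the receptor genes Tnfrsf1a, Tnfrsf1b, Ltbr and Tnfrsf14. All 8 were found and all 8 passed the filter on low counts in every comparison. The rule that chose them used their names and no measured value, although earlier results of these data were known.

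TNF is made as a membrane protein that is cut free, mainly by macrophages, neutrophils and activated T cells, and it drives swelling in arthritis. It binds TNF receptor 1 (Tnfrsf1a), found on most cell types, which can signal inflammation or cell death, and TNF receptor 2 (Tnfrsf1b), which is more restricted to immune cells and endothelium. Lymphotoxin alpha (Lta) alone is secreted and binds both TNF receptors, whereas joined to lymphotoxin beta (Ltb) it sits on the lymphocyte surface and binds the lymphotoxin beta receptor (Ltbr) on stromal and myeloid cells, a signal that builds and maintains lymph nodes. LIGHT (Tnfsf14) binds that receptor and also HVEM (Tnfrsf14), a receptor that in turn engages the inhibitory receptor BTLA on lymphocytes.

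Bulk RNA-seq counts were read from 18 libraries, 3 in each of 6 groups. All mice were of the Kaede strain, aged 6 to 10 weeks, whose cells carry a protein that turns from green to red under violet light, so that cells present in a lit tissue can be recognised later. In the inflamed groups, mice had received OT-II T cells polarised in culture to a Th1 phenotype and were immunised with ovalbumin (OVA) in complete Freund's adjuvant (CFA). They were then challenged with 100 µg heat-aggregated OVA (HAO) in the footpad (joint) or ear pinna (skin). The tissue was lit on day 3 and harvested 24 hours later, and red CD45+ cells were sorted from the tissue (joint nonmigrated, skin nonmigrated) or from the draining lymph node (joint migrated, skin migrated). The remaining groups, joint node and skin node at steady state, are labelled as cells that had migrated from uninflamed tissue. However, their sample titles carry KG (with PBS) for the joint and Naive for the skin. Which color was sorted was not given for each of them, nor whether these mice had received T cells or been immunised. Each inflamed library came from a pool of 8 to 18 mice, so p-values measure the spread between pools. The paper reports slight incidental conversion in the joint-draining node right after lighting. Some red node cells may therefore have been converted there. Nonmigrated cells were taken from tissue and migrated cells from a lymph node, so that having moved and the organ sampled cannot be told apart. Migrated and steady-state groups may differ in inflammation, in origin from tissue and in the color sorted. These cannot be told apart either. The steady-state groups also differ from each other in site and in what their titles name, which cannot be told apart in comparisons between the nodes.

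Assigned counts ran from 19239531 to 43814403 per library, and every inflamed skin library was smaller than every inflamed joint library, so that site and library size cannot be told apart there. Replicate 3 of the skin nonmigrated group stood apart: its summed T cell markers reached 306 CPM (counts per 1000000 assigned reads), against 741 and 829 in the other 2 libraries, and its summed monocyte and macrophage markers reached 7391 CPM, against 4817 and 3394. Several results for the ligand genes are given with and without it, and those of the wider gene lists only with it. Markers of 6 fibroblast genes, cells that a CD45+ sort should leave out, summed to between 191 and 738 CPM in the nonmigrated libraries and to at most 2.45 CPM in the lymph node libraries.

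Ltb, Tnf and Lta lie side by side on mouse chromosome 17 (build GRCm38, GENCODE M21). Ltb spans chr17:35194439-35196320 on the plus strand, Tnf spans chr17:35199381-35202007 on the minus strand 3060 bases further on, and Lta follows on the minus strand at chr17:35203165-35205351, 1157 bases beyond Tnf. In the comparisons that follow, Tnf and Ltb moved in opposite directions between nonmigrated and migrated cells at both sites. Lta rose with Ltb in joint, and between the nonmigrated groups Tnf and Lta were both lower in joint. The bases just before the start sites of these neighbours are shown, read 5′ to 3′ on the strand of each gene, from RefSeq (build GRCm38.p6). Capitals mark matches to motifs searched on both strands: TATAAA in Tnf and in Lta, and in Ltb the reverse complement of an NF-kB-like motif (GGG, any pair of bases, TTTCC). For Ltb 182 bases are shown, since the other 68 of the 250-base window lie inside the annotated gene.
Tnf promoter, chr17:35202008-35202257, minus strand: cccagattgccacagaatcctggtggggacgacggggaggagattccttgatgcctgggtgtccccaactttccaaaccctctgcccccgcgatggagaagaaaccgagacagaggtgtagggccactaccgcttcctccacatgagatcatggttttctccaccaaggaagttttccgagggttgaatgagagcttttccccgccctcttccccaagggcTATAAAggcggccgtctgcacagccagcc
Lta promoter, chr17:35205352-35205601, minus strand: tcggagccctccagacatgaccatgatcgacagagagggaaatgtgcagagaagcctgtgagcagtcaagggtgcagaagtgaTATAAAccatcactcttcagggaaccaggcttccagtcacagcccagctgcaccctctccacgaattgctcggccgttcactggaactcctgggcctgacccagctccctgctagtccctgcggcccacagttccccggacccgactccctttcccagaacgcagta
Ltb promoter, chr17:35194257-35194438, plus strand: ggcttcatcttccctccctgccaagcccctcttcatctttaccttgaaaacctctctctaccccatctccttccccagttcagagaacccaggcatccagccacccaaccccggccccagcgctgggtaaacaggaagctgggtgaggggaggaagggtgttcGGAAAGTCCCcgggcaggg

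TATAAA began 29 bases before the start of Tnf and 167 bases before that of Lta, and 12.4% of 32851 promoter windows of 250 bases held it somewhere. The NF-kB-like match before Ltb lay 87 to 78 bases before its RefSeq start, which lies 68 bases inside the annotated gene. Of the windows, 1.41% held the NF-kB-like motif. No other of the 8 genes had a match to either, and an AP-1-like motif, TGANTCA, present in 6.75% of windows, was found before Tnfsf14 alone. These matches describe letters in a window and are no evidence of binding. The other genes lie on chromosome 17 (Tnfsf14, chr17:57189492-57194177, minus strand), chromosome 6 (Ltbr, chr6:125306571-125313885, minus strand, and Tnfrsf1a, chr6:125349362-125362484, plus strand, on either side of Scnn1a) and chromosome 4 (Tnfrsf1b, chr4:145213463-145246870, minus strand, and Tnfrsf14, chr4:154921933-154928563, minus strand). None of the 8 shares exon bases with another annotated gene, although Lta and Ltb each hold an annotated microRNA gene (Mir6974 and Mir6973a) on the same strand.

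The first question was how these genes differed between cells that left inflamed tissue and cells that stayed. In the joint, Ltb and Lta were higher in migrated than in nonmigrated cells, and Tnfrsf1a, Ltbr and Tnf were lower, so that 5 of 8 passed the test (edgeR quasi-likelihood F test, Benjamini-Hochberg adjusted p under 0.05 and an absolute log2 fold change above 1), against 34.3% of the 16777 genes tested. The 3 libraries of each group did not overlap for 6 of 8, against 65.5% of genes. In skin, Ltb was higher and Tnfrsf1a, Ltbr, Tnf and Tnfsf14 were lower in migrated cells, again 5 of 8, against 35.4% of genes, and 6 of 8 did not overlap, against 61.6%. Migrated cells from joint and skin showed no member past the test, against 1.14% of genes, and none at an unadjusted p under 0.05; DESeq2 likewise gave 0. Their libraries did not overlap for 1 of 8 (Ltbr), against 28.2% of genes. Among cells that had stayed, Tnf, Lta and Tnfsf14 were lower in joint than in skin, 3 of 8 against 14.3% of genes, and 4 of 8 did not overlap, against 37.9%.

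The second question was how migrated cells differed from lymph node cells at steady state. In the joint-draining node Tnf, Tnfsf14, Tnfrsf1b and Ltbr were higher in migrated cells from inflamed joint, 4 of 8 against 24.2% of the 17107 genes tested in the lymph node libraries, and 6 of 8 did not overlap, against 57.5%. In the skin-draining node the same 4 genes were higher and Lta was lower, 5 of 8 against 36.5%, and again 6 of 8 did not overlap, against 71.2%. Joint and skin nodes at steady state differed past the test in Ltbr only, 1 of 8 against 3.89%, although 7 of 8 did not overlap, against 31.1%. The migrated libraries enter both kinds of comparison, so the values are given side by side and the comparisons are not independent.

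**Figure D1:**
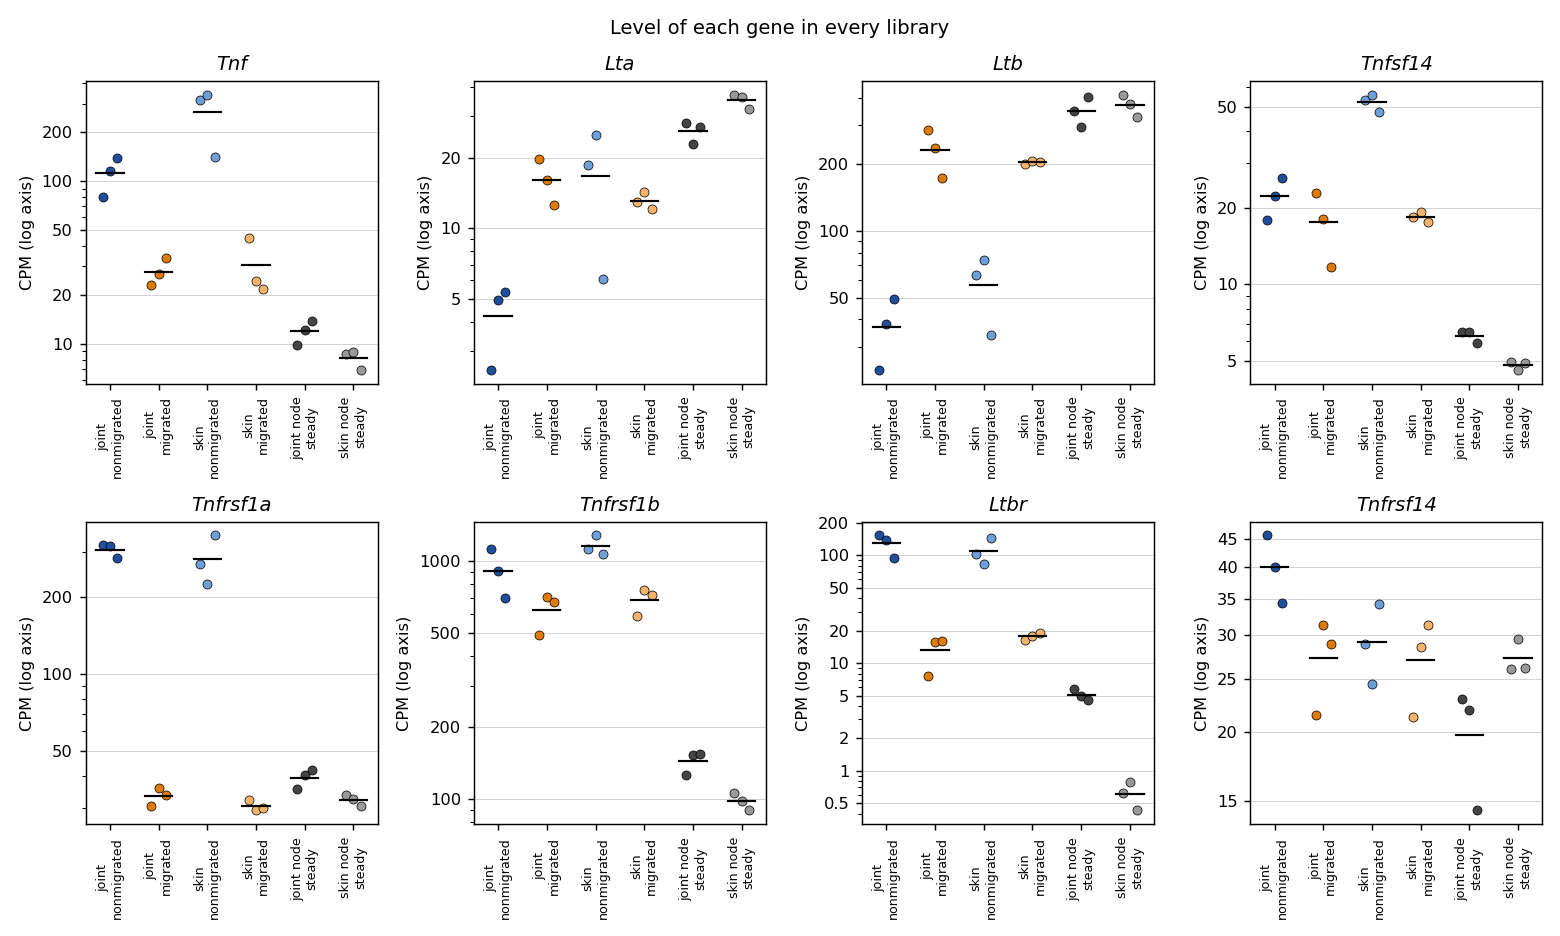
Each panel plots 1 gene, with its level in CPM (scaled by TMM factors over 18 libraries) on a log axis and the 6 groups along the bottom; points are libraries and bars are group means (n = 3). Tnf, Tnfrsf1a and Ltbr sit highest in the nonmigrated libraries, Ltb sits lowest there, and Tnfrsf14 spans the narrowest range, from 14.4 to 45.6 CPM.

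Tnf, the lead cytokine of the group, was abundant in cells that stayed and low in cells that left. Its level was 80.5, 116 and 139 CPM in the 3 joint nonmigrated libraries and 23.2, 26.8 and 33.6 CPM in the joint migrated libraries. In skin it was 315, 340 and 141 CPM in nonmigrated libraries and 45.1, 24.4 and 21.9 CPM in migrated libraries. All nonmigrated libraries lay above all migrated libraries of the same site. Tnf was 4.01-fold lower in migrated cells in joint (log2 fold change -2.00 ± 0.361 SE, adjusted p = 0.000619) and 8.75-fold lower in skin (-3.13 ± 0.378, adjusted p = 3.55e-05). Without skin nonmigrated replicate 3 the log2 fold change in skin was -3.43 (adjusted p = 5.86e-06). The difference between these changes, joint minus skin, was 1.12 ± 0.496 on the log2 scale and did not pass the test (adjusted p = 0.177), although it did without that replicate (1.42, adjusted p = 0.0269).

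Steady-state nodes held the least Tnf mRNA, with 9.83, 12.2 and 13.9 CPM in the joint node and 8.73, 8.87 and 6.94 CPM in the skin node. Migrated cells lay above them in every library. The excess was 2.38-fold for joint (log2 fold change 1.25 ± 0.241, adjusted p = 0.00077) and 3.80-fold for skin (1.93 ± 0.249, adjusted p = 1.68e-05). Between the nonmigrated groups, Tnf was 2.38-fold lower in joint (-1.25 ± 0.352, adjusted p = 0.0221), with no overlap but with the lowest skin library at 141 CPM beside the highest joint library at 139 CPM. That call was lost in a fit of these 6 libraries alone (adjusted p = 0.0528) and when either joint nonmigrated replicate 1 or 2, or skin nonmigrated replicate 1 or 2, was left out (adjusted p from 0.0624 to 0.0812). Without skin nonmigrated replicate 3 the log2 fold change was -1.55.

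Ltb, the membrane anchor of the lymphotoxin complex, ran the other way. The joint nonmigrated libraries held 23.7, 38 and 49.3 CPM and the joint migrated libraries 286, 238 and 174 CPM. Skin nonmigrated libraries held 63.7, 73.8 and 33.9 CPM, and skin migrated libraries held 201, 207 and 204 CPM. The groups did not overlap at either site. Ltb was 6.30-fold higher in migrated cells in joint (log2 fold change 2.66 ± 0.318, adjusted p = 3.2e-05) and 3.56-fold higher in skin (1.83 ± 0.31, adjusted p = 0.000394). Without skin nonmigrated replicate 3, where Ltb was lowest, the skin value was 1.57 (adjusted p = 0.000685). The difference of the changes between sites, 0.82 ± 0.425 on the log2 scale, did not pass (adjusted p = 0.241), but without that replicate it was 1.09 and passed narrowly (adjusted p = 0.0465).

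Ltb was highest of all in the steady-state nodes, at 347, 296 and 404 CPM in the joint node and 412, 374 and 327 CPM in the skin node. Every migrated library lay below every steady-state library of its node. The log2 differences, -0.55 ± 0.165 for joint (adjusted p = 0.0135) and -0.83 ± 0.166 for skin (adjusted p = 0.000666), were smaller than the fold threshold of 1, so neither was counted as changed. Nodes at steady state did not differ in Ltb beyond their spread (-0.10 ± 0.164, adjusted p = 0.798).

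Lta, which encodes the secreted subunit, had the largest estimated difference between sites in its change from nonmigrated to migrated cells among these 8 genes. Its levels were low throughout. Joint nonmigrated libraries held 2.49, 4.92 and 5.32 CPM and joint migrated libraries 19.8, 16 and 12.6 CPM, with no overlap, a 3.81-fold rise (log2 fold change 1.93 ± 0.435, adjusted p = 0.00275). Skin nonmigrated libraries held 18.7, 25.1 and 6.08 CPM and skin migrated libraries 12.9, 14.3 and 12.1 CPM. The skin nonmigrated libraries thus lay on both sides of the migrated ones, and the log2 difference was -0.35 ± 0.421 (adjusted p = 0.506). Replicate 3 of skin nonmigrated decided this spread: without it the value was -0.74 (adjusted p = 0.0489), still under the fold threshold, and leaving out replicate 2 instead gave 0.09 (adjusted p = 0.883).

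The change of Lta in joint exceeded that in skin by 2.27 ± 0.603 on the log2 scale (interaction term, edgeR quasi-likelihood F test, adjusted p = 0.0412), and with Tnfsf14 this made 2 of 8 members past the test against 6.13% of genes. The call was fragile: leaving out any 1 of the 12 libraries other than skin nonmigrated replicate 3 raised the adjusted p to between 0.0504 and 0.0985, whereas leaving out that library lowered it to 0.00129. Among nonmigrated cells Lta was 3.93-fold lower in joint than in skin (-1.98 ± 0.439, adjusted p = 0.00726; -2.37 without skin nonmigrated replicate 3, adjusted p = 0.000176).

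Steady-state nodes carried the most Lta, 28.1, 22.9 and 27.1 CPM in the joint node and 37.1, 36.3 and 32.4 CPM in the skin node. All lay above the migrated libraries of the same node. Lta was 2.63-fold lower in skin migrated cells than in the skin node at steady state (log2 fold change -1.40 ± 0.155, adjusted p = 4.04e-06). The joint value was -0.66 ± 0.15 (adjusted p = 0.00251), under the fold threshold. The difference between the nodes in this change was 0.74 ± 0.214 and was likewise under the threshold (adjusted p = 0.0447).

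Tnfsf14, encoding LIGHT, was lower in migrated than in nonmigrated cells in skin but not detectably so in joint. In skin its levels were 53.2, 55.7 and 47.5 CPM in nonmigrated libraries and 18.4, 19.2 and 17.6 CPM in migrated libraries. In joint they were 17.9, 22.3 and 26.3 CPM in nonmigrated libraries and 22.9, 18 and 11.7 CPM in migrated libraries. The skin groups stood far apart and the joint groups overlapped. Tnfsf14 was 2.84-fold lower in skin migrated cells (log2 fold change -1.51 ± 0.217, adjusted p = 0.000126), and the joint value was -0.34 ± 0.212 (95% interval -0.75 to 0.08, adjusted p = 0.197). The changes differed between sites by 1.17 ± 0.301 (interaction term, adjusted p = 0.0373).

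That difference in Tnfsf14 passed without joint migrated replicate 3, without joint nonmigrated replicate 3 or without skin nonmigrated replicate 3, but not when any other of the 12 libraries was left out (adjusted p from 0.0582 to 0.0879). The nonmigrated groups differed directly, with Tnfsf14 2.36-fold lower in joint than in skin (-1.24 ± 0.214, adjusted p = 0.00202). The steady-state nodes held the least, 6.47, 6.48 and 5.88 CPM in the joint node and 4.93, 4.61 and 4.92 CPM in the skin node. Migrated cells exceeded them 2.86-fold for joint (1.52 ± 0.191, adjusted p = 2.22e-05) and 3.90-fold for skin (1.96 ± 0.197, adjusted p = 1.59e-06), with no overlap.

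Tnfrsf1a, the receptor that can signal death as well as inflammation, separated the tissue cells from all lymph node cells. Its level was 319, 318 and 284 CPM in joint nonmigrated libraries and 269, 226 and 349 CPM in skin nonmigrated libraries. Migrated libraries held 30.6, 36 and 33.7 CPM for joint and 32.2, 29.3 and 30 CPM for skin. Steady-state libraries held 35.4, 40.5 and 42.1 CPM in the joint node and 33.8, 32.5 and 30.4 CPM in the skin node. The 12 lymph node libraries thus lay between 29.3 and 42.1 CPM, and no tissue library was below 226 CPM. The fall in migrated cells was 9.17-fold in joint (log2 fold change -3.20 ± 0.153, adjusted p = 1.06e-07) and 9.23-fold in skin (-3.21 ± 0.153, adjusted p = 5.93e-08). The difference of these changes was 0.01 ± 0.199, with a 95% interval of -0.38 to 0.40. Against steady state, neither migrated group passed the test (-0.20 ± 0.0986 for joint and -0.05 ± 0.0999 for skin).

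Tnfrsf1b, the receptor more typical of immune cells, separated nonmigrated and migrated libraries from steady-state libraries instead. Nonmigrated libraries held 1124, 912 and 700 CPM in joint and 1127, 1287 and 1079 CPM in skin. Migrated libraries held 488, 705 and 675 CPM for joint and 588, 756 and 721 CPM for skin. Steady-state libraries held 126, 153 and 155 CPM in the joint node and 106, 98.1 and 89.2 CPM in the skin node. Joint nonmigrated and migrated cells overlapped, and skin ones did not. The log2 differences on migration were -0.55 ± 0.193 in joint (adjusted p = 0.0298) and -0.76 ± 0.193 in skin (adjusted p = 0.00539), both under the fold threshold. Against steady state, Tnfrsf1b was 4.40-fold higher in joint migrated cells (2.14 ± 0.154, adjusted p = 1.45e-07) and 7.19-fold higher in skin migrated cells (2.85 ± 0.159, adjusted p = 7.93e-09).

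Ltbr, the receptor for the membrane lymphotoxin complex and for LIGHT, had the widest range of the 8 genes as a fold between its highest and lowest library. It reached 153, 140 and 94.2 CPM in joint nonmigrated libraries and 104, 82.7 and 145 CPM in skin nonmigrated libraries. Migrated libraries held 7.62, 15.8 and 16.2 CPM for joint and 16.4, 17.9 and 19 CPM for skin. Ltbr was 9.77-fold lower in joint migrated cells (log2 fold change -3.29 ± 0.307, adjusted p = 5.39e-06) and 6.23-fold lower in skin migrated cells (-2.64 ± 0.301, adjusted p = 2.29e-05). In both sites every migrated library lay below every nonmigrated library, and the changes did not differ beyond their error (-0.65 ± 0.402, adjusted p = 0.329).

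At steady state the nodes parted, although site and what the titles name (PBS and KG for joint, Naive for skin) cannot be told apart there. Ltbr stood at 5.7, 4.91 and 4.59 CPM in the joint node and at 0.628, 0.787 and 0.428 CPM in the skin node, where 14 to 34 reads were counted per library. It was 8.04-fold higher in the joint node (log2 fold change 3.01 ± 0.296, adjusted p = 3.68e-05). Migrated cells exceeded steady state 2.66-fold for joint (1.41 ± 0.247, adjusted p = 0.000358) and 29.0-fold for skin (4.86 ± 0.304, adjusted p = 2.04e-08). The difference of these changes was -3.45 ± 0.382 on the log2 scale (interaction term, adjusted p = 0.000174), and Ltbr was the 1 member of 8 past this test against 6.11% of genes. Between the nodes at steady state the myeloid markers moved alongside. All 7 neutrophil markers and 6 of 8 monocyte and macrophage markers were higher in the joint node. They summed there to 430 to 850 CPM and 101 to 136 CPM. In the skin node the sums were 12.9 to 20.6 CPM and 17 to 22.7 CPM. All 8 monocyte and macrophage markers were also higher in skin migrated cells than in the skin node at steady state. Joint migrated cells differed from this pattern. Against the joint node at steady state, where Ltbr was also higher in migrated cells, all 7 neutrophil markers were lower. Of the 8 monocyte and macrophage markers, 3 were higher there and 1 was lower. The part of these cell types in the Ltbr values was not tested.

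Tnfrsf14, which encodes HVEM, had the narrowest range of the 8 and passed no test in any of the 9 comparisons. Its libraries ran from 34.3 to 45.6 CPM in joint nonmigrated cells, from 21.5 to 31.3 in joint migrated cells, from 24.5 to 34.2 in skin nonmigrated cells and from 21.3 to 31.3 in skin migrated cells. The steady-state range was 14.4 to 23 CPM in the joint node and 26.1 to 29.5 CPM in the skin node. Joint nonmigrated cells lay above every other group without overlap, but the log2 difference from joint migrated cells was -0.55 ± 0.19 (adjusted p = 0.0273), under the fold threshold. In skin it was -0.11 ± 0.192, with a 95% interval of -0.49 to 0.27. Against steady state the values were 0.49 ± 0.187 for joint (adjusted p = 0.0416) and 0.02 ± 0.188 for skin (adjusted p = 0.921).

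Once in the lymph node, cells from joint and skin showed no detectable difference in these genes. The log2 difference, joint minus skin, was -0.13 for Tnf (95% interval -0.82 to 0.56), 0.30 for Lta (-0.52 to 1.12) and 0.19 for Ltb (-0.39 to 0.78). For Tnfsf14 it was -0.07 (-0.48 to 0.35). Among the receptors it was 0.13 for Tnfrsf1a (-0.14 to 0.41), -0.14 for Tnfrsf1b (-0.52 to 0.23), -0.43 for Ltbr (-0.99 to 0.14) and 0.01 for Tnfrsf14 (-0.36 to 0.38). For Lta a difference above the fold threshold of 1 thus lies within the interval, and for Ltbr the interval ends close to it. These intervals are the estimate ± 1.96 SE and are narrower than the F test implies. The 6 B cell markers and 1 of 7 neutrophil markers were higher in the cells from joint.

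**Figure D2:**
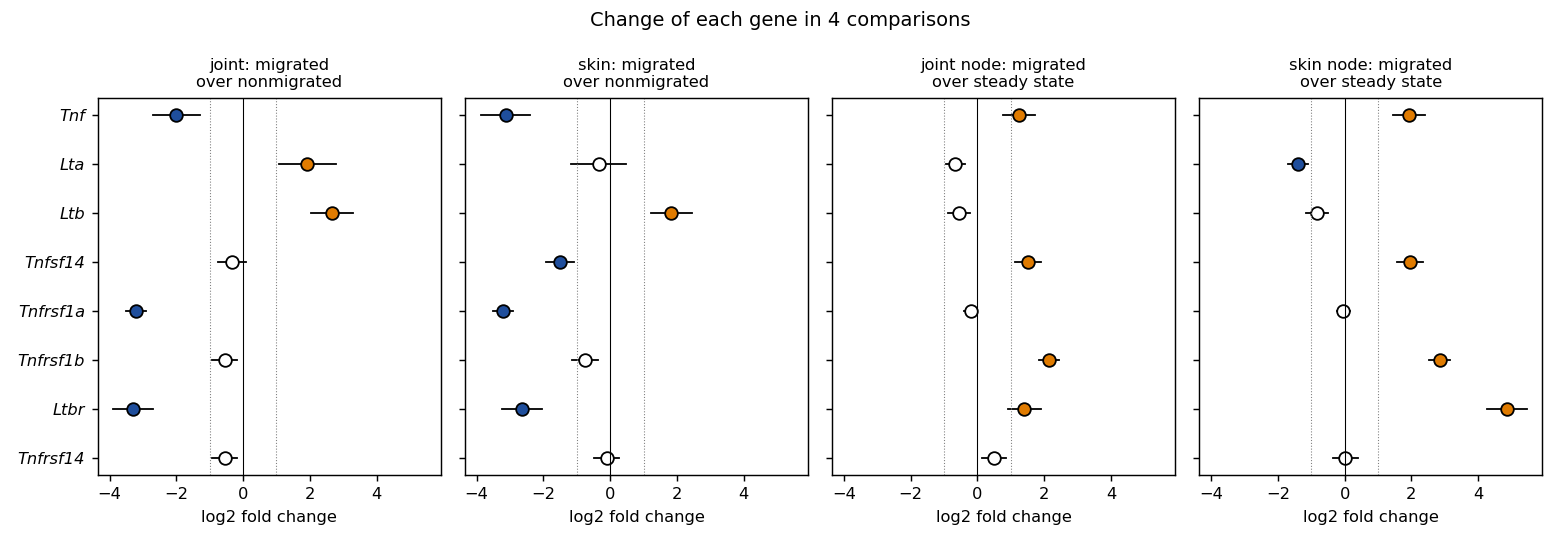
Each panel is 1 comparison, with log2 fold change along the bottom and 1 gene per line; points are edgeR estimates with 95% intervals, dotted lines mark a log2 fold change of 1 in each direction, orange points passed the test as higher, blue as lower and white did not pass. Intervals are the estimate ± 1.96 SE. Tnfrsf1a and Ltbr lie far to the left in both migration comparisons, and Ltbr reaches 4.86 in the skin node comparison.

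Set per length of exon, the order of the genes changed between tissue and node. Tnfrsf1b led in the joint nonmigrated group at 239 ± 55.5 CPM per kilobase (SD, n = 3), followed by Tnfrsf1a at 118 ± 7.66 and Tnf at 68.2 ± 17.9, which overlapped with Ltbr at 54.9 ± 13.1, while Ltb stood at 24.4 ± 8.47 and Lta was last at 3.07 ± 1.11. In joint migrated cells Tnfrsf1b at 163 ± 30.7 and Ltb at 154 ± 37.3 CPM per kilobase overlapped at the top, and the next gene, Tnfrsf14, reached 18.9 ± 3.57. In joint migrated cells the neighbours Tnfrsf14 and Tnf overlapped, as did Tnfrsf1a, Lta, Tnfsf14 and Ltbr in turn.

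Skin gave much the same picture. In skin nonmigrated cells Tnfrsf1b was first at 305 ± 28.5 CPM per kilobase, and Tnf at 162 ± 65.9 overlapped with Tnfrsf1a at 108 ± 24.1. In skin migrated cells Tnfrsf1b at 180 ± 23.2 stood above Ltb at 135 ± 2.18 without overlap. At steady state Ltb led alone, at 230 ± 35.4 CPM per kilobase in the joint node and 245 ± 27.9 in the skin node. Ltbr was last in all 4 lymph node groups, down to 0.261 ± 0.0766 CPM per kilobase in the skin node.

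**Figure D3:**
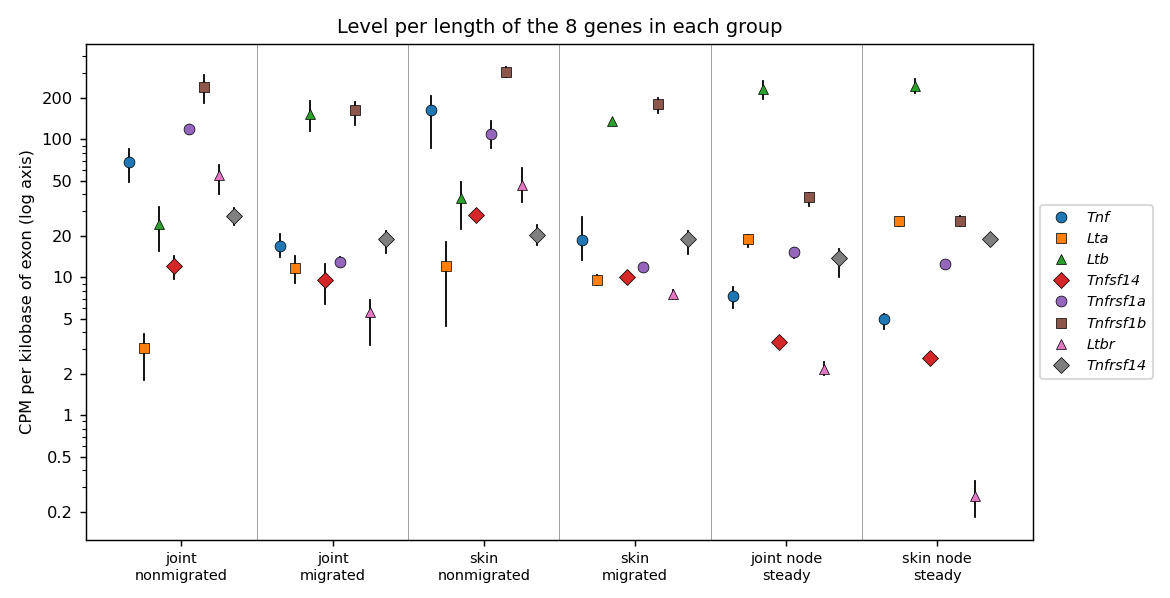
CPM per kilobase of merged exon on a log axis for the 8 genes in each of the 6 groups; symbols are group means and vertical lines join the lowest and highest of 3 libraries. Tnfrsf1b is at or near the top in the nonmigrated and migrated groups. Ltb stands alone at the top of both steady-state nodes, at 230 and 245.

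Ratios of CPM per kilobase within a library do not depend on library scaling and show these shifts directly; they are given as descriptions. The ratio of Tnfrsf1b to Tnfrsf1a ran from 1.67 to 2.39 in joint nonmigrated libraries, from 2.10 to 3.87 in skin nonmigrated libraries and from 1.99 to 2.57 over the steady-state libraries. In migrated cells it ran from 10.8 to 13.6 for joint and from 12.4 to 17.5 for skin. Migrated cells thus stood apart from the tissue cells and from the steady-state cells, with no overlap.

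Ltb relative to Tnf separated all cells that stayed from all lymph node cells. The ratio was 0.318 to 0.384 in joint nonmigrated and 0.219 to 0.259 in skin nonmigrated libraries, so that Tnf was the more abundant per length. It was 5.60 to 13.4 in joint migrated and 4.81 to 10.1 in skin migrated libraries. It was higher again at steady state, 26.4 to 38.2 in the joint node and 45.6 to 51.0 in the skin node. Ltb exceeded Lta per length in every library, by 2.68 to 5.08 times in skin nonmigrated cells and by 7.05 to 15.4 times in the other groups. Tnfrsf14 was below Ltbr per length in every tissue library (ratios 0.385 to 0.597) and above it in every lymph node library (2.12 to 100).

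**Figure D4:**
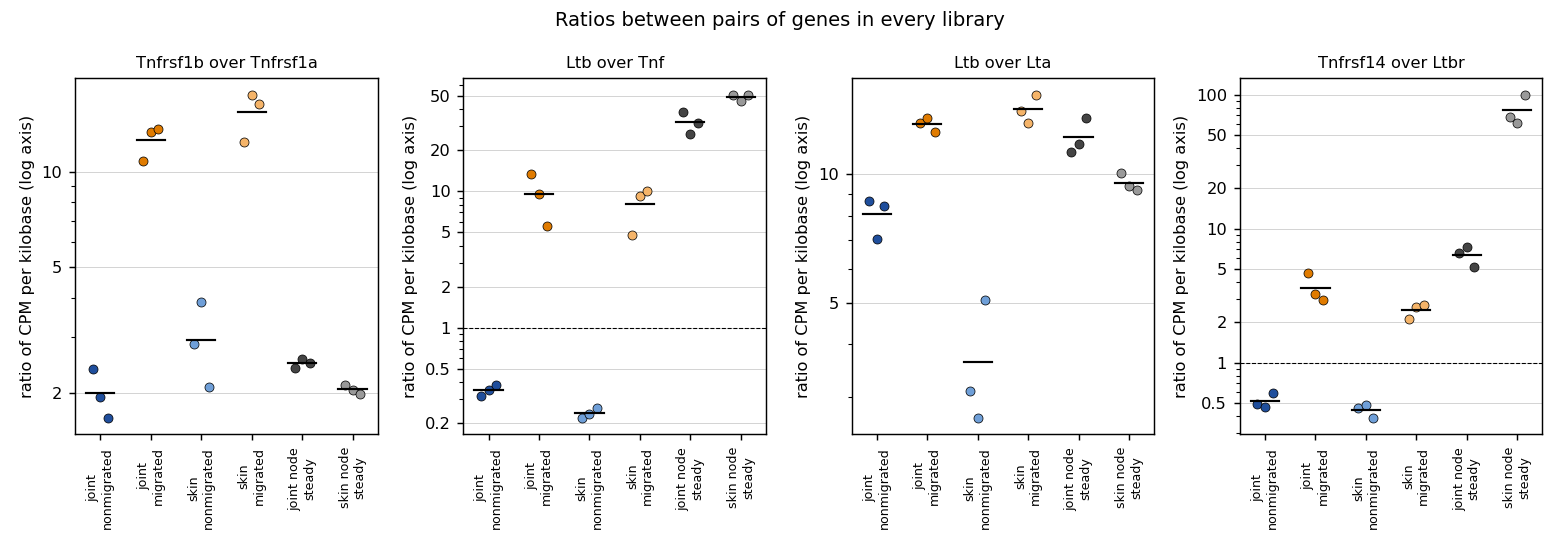
Ratios of CPM per kilobase for 4 pairs of genes on log axes, by group; points are libraries, bars are group means and dashed lines mark a ratio of 1 where the axis includes it. Migrated libraries from both sites sit at 10.8 to 17.5 for Tnfrsf1b over Tnfrsf1a, above all other libraries.

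The wider pathway was followed with lists of named genes, which describe counts and medians and carry no test of their own. The share of all genes that passed, in either direction, was 34.3% for joint and 35.4% for skin migrated against nonmigrated cells, and 24.2% and 36.5% against steady state. Genes that TNF is known to induce were mostly lower in migrated than in nonmigrated cells: of 21 tested, 17 were lower and 1 was higher in joint (median log2 fold change -2.50, against 0.02 over all genes), and 15 were lower and 3 higher in skin (median -4.02, against 0.01). In joint, Ier3, an early stress-response gene, was 448 CPM in nonmigrated and 10.9 CPM in migrated cells (log2 fold change -5.36 ± 0.434, adjusted p = 2.17e-06), and Ccl2, a chemokine for monocytes, fell from 153 to 1.53 CPM (-6.65 ± 0.589, adjusted p = 3.88e-06). Ccl5, a chemokine made by T cells among others, ran against the list and was higher in migrated cells, at 820 against 130 CPM in joint (2.66 ± 0.191, adjusted p = 9.92e-07). Against steady state the list ran higher, with 11 of 20 tested genes higher and 0 lower in joint migrated cells (median 1.17, against -0.02 over all genes) and 18 higher and 1 lower in skin migrated cells (median 3.91, against 0). Icam1, an adhesion molecule, was 380 CPM in skin migrated cells and 49.2 CPM in the skin node at steady state (2.98 ± 0.179, adjusted p = 1.43e-08).

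Of 7 genes of TNF shedding and its control, 4 were lower and 1 was higher in cells that left at each site. The share of all genes that passed was 34.3% in joint and 35.4% in skin. The 4 lower genes were Adam17, Rhbdf2, Sppl2a and Timp3, an inhibitor of Adam17. Adam17, the protease that cuts TNF from the membrane, was 299 CPM in joint nonmigrated and 104 CPM in joint migrated cells (log2 fold change -1.52 ± 0.101, adjusted p = 6.32e-07). Rhbdf2, a partner that brings Adam17 to the surface, fell in skin from 238 to 40.9 CPM (-2.55 ± 0.106, adjusted p = 2.68e-08), a larger fall than in joint by 1.33 ± 0.142 (interaction term, adjusted p = 0.00085). Its relative Rhbdf1 was the gene that rose, 1.03 ± 0.232 in joint and 1.2 ± 0.241 in skin. Of 9 genes listed for control of TNF mRNA, Zfp36, which speeds its decay, and Litaf were lower in joint migrated cells. In skin migrated cells Litaf alone was lower.

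Downstream of the receptors, 4 of 17 adaptors and enzymes of the receptor complex were higher in joint migrated cells (Traf1, Traf2, Traf5 and Birc2), against 34.3% of all genes that passed in either direction. In skin migrated cells 2 of 17 were higher (Traf1 and Birc2), against 35.4%, and none was lower at either site. Birc2, a ubiquitin ligase, was 258 against 49.7 CPM in joint (2.38 ± 0.251, adjusted p = 1.3e-05). Among 9 brakes on signalling 1 rose at each site, Cyld in joint and Tnfaip3 in skin. The skin groups overlapped for Tnfaip3, at 795, 672 and 270 CPM in nonmigrated and 1815, 748 and 1256 CPM in migrated libraries. Its lowest value was in skin nonmigrated replicate 3. Among 6 genes of the death branch Mlkl, the executor of necroptosis, was lower at both sites and Bid, which links death receptors to mitochondria, in skin. In the lymphotoxin receptor branch Relb, its transcription factor subunit, was higher in migrated cells at 425 against 82 CPM in joint (2.38 ± 0.265, adjusted p = 1.91e-05) and 539 against 133 CPM in skin (2.02 ± 0.262, adjusted p = 5.92e-05). Nfkb2, which encodes its partner, passed the test in skin (1.03 ± 0.213, adjusted p = 0.00159) and was 0.88 ± 0.212 in joint (adjusted p = 0.00408), under the fold threshold.

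Against steady state, no gene of the adaptor, brake, death branch or lymphotoxin receptor lists passed as lower. Relb was higher in both migrated groups, by 2.64 ± 0.217 for joint and 3.20 ± 0.222 for skin on the log2 scale. Of the 9 brakes, Nfkbia, an inhibitor of NF-kB, was higher in joint migrated cells (1.5 ± 0.212, adjusted p = 6.34e-05), and 4 were higher in skin migrated cells. Of 4 genes of the lymphotoxin receptor branch 1 was higher for joint and 3 for skin. Of 6 stromal genes that lymphotoxin induces in lymph nodes, 3 passed the count filter (Cxcl13, Ccl21a and Glycam1). All 3 were under 2 CPM in most libraries and passed as higher in skin migrated cells against steady state, but the values for Ccl21a and Glycam1 rest largely on skin migrated replicate 1 (8.43 and 76.2 CPM).

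HVEM itself passed no test, but its partners did. Btla, the inhibitory receptor on lymphocytes, was higher in migrated than in nonmigrated cells, at 117 against 14.1 CPM in joint (log2 fold change 3.05 ± 0.254, adjusted p = 2.56e-06) and 57.3 against 23.1 CPM in skin (1.31 ± 0.241, adjusted p = 0.00072). The joint change was the larger by 1.74 ± 0.337 (interaction term, adjusted p = 0.0113). Cd160, a further partner on cytotoxic lymphocytes, was likewise higher, by 2.95 ± 0.368 in joint and 2.40 ± 0.368 in skin. Against steady state the partners parted, with Btla lower (-1.78 ± 0.147 for joint and -2.58 ± 0.152 for skin) and Cd160 higher (1.60 ± 0.234 and 1.40 ± 0.236). B cell markers, which were lower in migrated cells than at steady state for 6 of 6 genes at both sites, moved with Btla, and their part in it was not tested.

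The rest of the superfamily was mixed. Of 13 other ligands tested, 6 were higher and 5 lower in joint migrated cells, and 1 was higher and 4 lower in skin migrated cells, against 34.3% and 35.4% of all genes that passed. Tnfsf8, the CD30 ligand, was higher at both sites (2.33 ± 0.322 and 1.22 ± 0.314), and Tnfsf12 (TWEAK) and Tnfsf13b (BAFF, a survival factor for B cells) were lower at both. Of 21 other receptors tested, 11 were higher and 3 lower in joint migrated cells and 7 were higher and 6 lower in skin migrated cells. Cd27, a costimulatory receptor of T cells, was 132 against 13.6 CPM in joint (3.29 ± 0.272, adjusted p = 2.52e-06). Against steady state, Tnfrsf11a, the receptor for RANK ligand, was 75 against 1.02 CPM for joint (6.22 ± 0.336, adjusted p = 1.28e-08) and 98.9 against 0.443 CPM for skin (7.79 ± 0.375, adjusted p = 2.38e-09).

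Cell makeup differed between the groups, and in bulk samples fewer cells of a type and less RNA per cell cannot be told apart. In joint migrated against nonmigrated cells all 8 T cell and all 6 B cell markers were higher, and all 7 neutrophil, all 8 monocyte and macrophage and all 6 fibroblast markers were lower. In skin 6 of 8 T cell and 6 of 6 B cell markers were higher, and all markers of those 3 other lists were lower. Summed T cell markers ran from 169 to 360 CPM in joint nonmigrated cells, from 306 to 829 in skin nonmigrated cells, from 1488 to 1951 in migrated cells and from 1640 to 2313 at steady state. Summed monocyte and macrophage markers ran from 3394 to 9799 CPM in tissue and from 17 to 195 CPM in lymph node libraries, and summed neutrophil markers from 1556 to 16548 CPM in tissue and from 12.9 to 850 CPM in lymph node libraries. No T cell, B cell, neutrophil or monocyte and macrophage marker was at 0 in every library of a group, and the fibroblast marker Pdgfra was at 0 in all skin migrated libraries. Between tissue and lymph node libraries, Ltb was thus high where T cell markers were high. Tnf, Tnfrsf1a and Ltbr were high where myeloid and fibroblast markers were high. Among tissue libraries Tnf was lower in joint than in skin, although neutrophil markers were higher in joint. These markers summed to 5462 to 16548 CPM in joint and to 1556 to 2753 CPM in skin. The skin nonmigrated library with the most macrophage markers, replicate 3, had the lowest Tnf of its group. The part of cell makeup in these values was not tested.

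**Figure D5:**
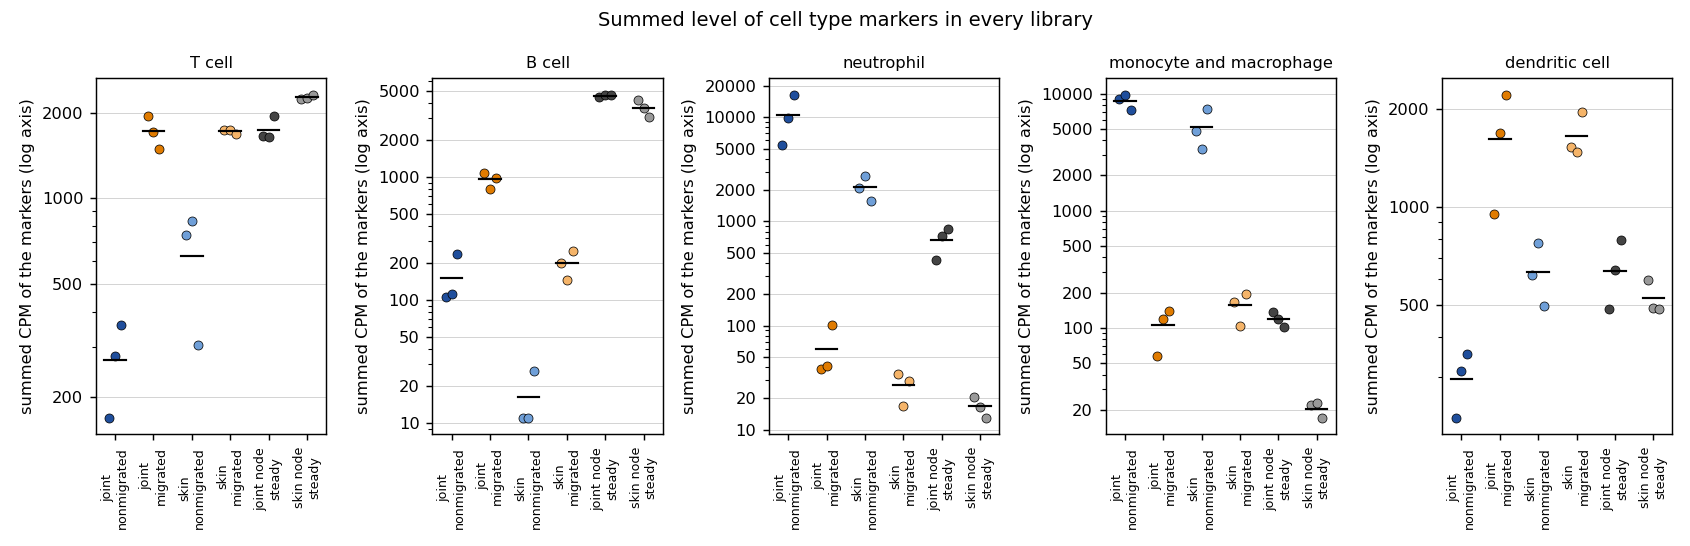
Summed CPM of 5 lists of cell type markers on log axes, by group; points are libraries and bars are group means (n = 3). Neutrophil and monocyte and macrophage markers are at least 1556 CPM in every tissue library and at most 850 CPM in every lymph node library, and in skin nonmigrated cells replicate 3 has the fewest T cell and the most macrophage markers.

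Between the nonmigrated groups, 6 of 8 T cell markers and 4 of 7 dendritic cell markers were lower in joint than in skin, 5 of 7 neutrophil markers were higher, and no monocyte and macrophage marker passed the test. All 5 keratinocyte markers were lower in joint and all 6 B cell markers were higher. Tnf, Lta and Tnfsf14 moved in the direction of the T cell, dendritic cell and keratinocyte markers there. Keratinocyte markers summed to 164, 318 and 26.7 CPM in the 3 skin nonmigrated libraries, the same order of libraries as for Tnf, Lta and Ltb. Within skin nonmigrated cells the library with the fewest T cell markers, replicate 3, also had the lowest Tnf, Lta and Ltb and the highest Tnfrsf1a and Ltbr of its group. Dendritic cell markers were higher against steady state for 5 of 7 genes and natural killer cell markers for 4 of 5 genes at both sites, as Tnfrsf1b and Tnfsf14 were, while T cell markers were not higher at either site. Whether these cell types carried the differences was not tested.

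For each gene the 3 genes most like it across the 18 libraries were taken by Pearson's r of log2(CPM + 1) over 18109 genes. These values describe the 18 libraries, which fall into 6 groups and share tissue, depth and cell makeup, and they carry no p. Ltbr was most like Sirpa (0.997), a receptor of myeloid cells, and Tnfrsf1a most like Ctsl (0.995), a lysosomal protease. Lta was most like Plekha7 and Crybg2 (both 0.977). Ltb was most like Grap (0.995), an adaptor of lymphocytes, Tnf most like Nudt4 (0.989), Tnfsf14 most like Glrx (0.983) and Tnfrsf1b most like Efhd2 (0.993). Tnfrsf14 had no close neighbour, with its highest value at 0.888.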

How the data were processed

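The authors trimmed reads with Trim Galore after FastQC, aligned them to mm10 with TopHat2 and counted them per gene with HTSeq. The deposited values are raw counts per gene for 18 libraries, and tool versions and strand setting were not given in the sources used here. Lines of the table that name no gene (11.3 to 15.1% of reads) were left out. CPM levels were scaled with TMM factors over all 18 libraries and divided by merged exon length for comparison between genes (GENCODE M21). Genes were filtered with filterByExpr (minimum count 10) and compared by the quasi-likelihood F test of edgeR 4.0.16 (R 4.3.3), with Benjamini-Hochberg adjustment over all genes, in a fit of the 12 inflamed libraries and a fit of the 12 lymph node libraries. A gene passed at an adjusted p under 0.05 and an absolute log2 fold change above 1, the threshold of the study's methods. Intervals of 95% are the estimate ± 1.96 SE. This normal form is narrower than the F test implies, so the interval ends are approximate. Replicates are separate pools or samples, and where the labels do not say that they are independent, the spread may be technical. Alternatives were a threshold of 0.001, DESeq2 1.42.0 (size factors or Wald test), no filter, a replicate block, other sample sets and leaving out each library. Further genes are named as up to 3 per list and direction with the lowest adjusted p and no overlap. Traf1, Timp3 and Nfkb2 in joint, Sppl2a in skin, Tnfaip3 and the stromal genes were named beyond this rule after their values were seen. Genes and lists were chosen with earlier results of these data known. The tests were checked on simulated counts.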

Additional observations from a re-analysis of the deposited data

Results flagged for a closer look

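Among these 8 genes, 3 changes differed between sites by an interaction term (edgeR quasi-likelihood F test, Benjamini-Hochberg adjustment over all genes). The change of Lta from nonmigrated to migrated cells was greater in joint than in skin by 2.27 on the log2 scale. It was 1.93 in joint and -0.35 in skin. That of Tnfsf14 was greater in joint by 1.17, with -0.34 in joint and -1.51 in skin. Both calls were lost in most refits that left out 1 library, and also in the fit with a replicate block. The change of Ltbr against steady state was smaller in the joint-draining node than in the skin-draining node, by -3.45 on the log2 scale, with 1.41 in joint and 4.86 in skin, and this held in all 18 alternatives tried. The steady-state groups behind it have unlike titles (PBS and KG for joint, Naive for skin), which cannot be told apart from site. Groups of 3 libraries were not tested for single libraries that stand apart.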

How the results depend on the processing

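Each alternative changed 1 choice, except that the DESeq2 Wald test also used its own size factors. DESeq2 size factors alone left the number of these 8 genes that passed the same in all 9 comparisons. At an adjusted p under 0.001, the genes that passed were 3586 of 5757 for joint migrated against nonmigrated, 3508 of 5940 for skin, 511 of 2400 between nonmigrated groups, 0 of 191 between migrated groups, 20 of 1029 for the difference in migration change, 2714 of 4143 for joint migrated against steady state, 246 of 665 between steady-state nodes and 152 of 1045 for the difference in inflammation change. The count among the 8 genes then fell from 3 to 0 between nonmigrated groups and from 2 to 0 for the difference in migration change, and Lta no longer passed for joint migrated against nonmigrated. Fitting all 18 samples gave 407 genes between migrated groups, 1664 for the difference in migration change and 666 for the difference in inflammation change. The DESeq2 Wald test gave 465 and 1729 for the first 2 of these, and no filter gave 327 between migrated groups. The cause of these shifts was not tested.

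The labels do not say that a shared replicate number marks a shared batch. Correlations of the deviations of same-numbered libraries were 0.021, 0.254 and 0.195 between joint nonmigrated and migrated groups and 0.173, 0.074 and 0.147 in skin, where every library correlated best with its own number, a hint of pairing from the data. They ran from -0.352 to 0.19 in the other comparisons, and the fit without the block was kept. With the replicate block, 826 genes and 0 of the 8 passed for the difference in migration change (Lta 2.11, adjusted p = 0.0807, and Tnfsf14 1.14, adjusted p = 0.102), Tnfrsf1a there was -0.01, and no other call among the 8 changed.

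Leaving out 1 library gave 1745 to 3720 genes between nonmigrated groups, 58 to 171 between migrated groups, 582 to 2610 for the difference in migration change (0 to 4 of the 8 genes) and 695 to 1240 for the difference in inflammation change. The highest counts, 3720, 2610 and 4, came without skin nonmigrated replicate 3. The lowest, 1745 and 582, came without skin nonmigrated replicate 1, 58 without joint migrated replicate 2 and 695 without skin node replicate 2.

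Every value that changed sign belonged to a gene that did not pass. For skin migrated against nonmigrated, leaving out 1 library gave -0.74 to 0.09 for Lta and -0.24 to 0.04 for Tnfrsf14. Between nonmigrated groups Tnfrsf1a ran from -0.01 to 0.31. Between migrated groups Tnf ran from -0.28 to 0.28, Tnfrsf14 from -0.12 to 0.17, Tnfrsf1b from -0.24 to 0.02 and Tnfsf14 from -0.28 to 0.19, and Tnfsf14 was 0 with no filter. For the difference in migration change Tnfrsf1a ran from -0.18 to 0.14. For skin migrated against steady state Tnfrsf14 ran from -0.14 to 0.13, and was -0.01 with all 18 samples, -0.02 with no filter and 0 with only the groups compared. Between steady-state nodes Ltb ran from -0.21 to 0. In all, 956 of the gene values kept direction and side of the threshold, 33 no longer passed, 2 newly passed and 25 changed sign. Ltbr in the skin node at steady state rests on 14 to 34 reads per library, and its fold change carries that counting error.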
